A study of Mus musculus with 6 samples.

Results

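The genes that mark the central macrophage of the erythroblastic island were followed in sorted erythroblasts of 2 genotypes, on Agilent whole mouse genome arrays. They were 10 genes, Vcam1, Cd163, Spic, C1qa, C1qb, C1qc, Csf1r, Mertk, Axl and Siglec1, and were taken by name, not by their measured values. The list was written with earlier results of these data known. Every probe that the array files name for one of them was used, which gave 14 of 55681 non-control probes. Csf1r was read by 3 probes, Vcam1 and Siglec1 by 2 each and the other members by 1 each.

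The study compared bone marrow (BM) erythroblasts of mice with and without the kinase P38α during recovery from haemolytic anemia. The P38α+/- mice (Mx1-Cre/P38α fl/+, n = 3) served as controls for the P38α-/- mice (Mx1-Cre/P38α fl/fl, n = 3), all on a C57Bl/6 background. All 6 mice carried Mx1-Cre, which interferon induces in hematopoietic cells, macrophages included, and in other interferon-responsive cells. At 6 to 8 weeks of age, male and female mice were given PolyIC (300 µg, 3 injections) to switch on Cre and rested for 6 weeks. Each mouse then received 1 injection of PHZ (phenylhydrazine, 100 mg per kg), which lyses red cells, and CD71highTer119+ cells were sorted on day 4 of recovery. Amplified RNA of each mouse (10 ng at the start) was Cy3-labelled and put on 1 array.

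In the bone marrow, erythroblasts mature around a central macrophage that holds them by adhesion molecules, supplies iron and engulfs the nuclei they expel. The cells were sorted as erythroblasts by CD71 and Ter119, and no macrophage marker was part of the gate. In bulk RNA of this kind, fewer cells of a type and less RNA per cell cannot be told apart.

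Values are log2 signals minus the 75th percentile of the same array, for which the 15538 probes that rose well above background throughout the 6 arrays were used, so that 0 is the level of that percentile. Well above background is the call of the scanner software for each spot. Of all probes, between 36.9% and 53.1% were well above background on the P38α+/- arrays and between 28.9% and 35.9% on the arrays labelled P38α-/-. Replicate 3 of the arrays labelled P38α-/- was hybridised on a slide of its own, and the other 5 arrays shared 1 slide. All 10 erythroid markers examined, Tfrc among them, were well above background on every array, and their summed level was 394 to 489 times the 75th percentile in P38α+/- arrays and 374 to 489 times in arrays labelled P38α-/-. The brighter probe of Mapk14, the gene of P38α, read 0.33, 0.58 and 0.61 in P38α+/- arrays, against 0.76, 1.19 and 1.20 in arrays labelled P38α-/- (log2 fold change 0.54, adjusted p = 0.186 by limma). Mapk14 was therefore not lower where the label says that it was deleted, and whether its probes lie in the deleted part is not given in the sources used here. The study checked P38α protein in sorted erythroblasts of such mice by immunoblotting and describes it as lost. Every direction below rests on those labels.

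The probes are what the values of a member rest on, so the first 30 of the 60 bases of 6 of them are printed here, 5′ to 3′, with no part set in capitals. Positions are those of mm9, and all 6 read genes on the minus strand.

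Vcam1 probe at transcript base 3060, chr3:115813216-115813275: tatatttttataggcaaatggtaaagaggt

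Vcam1 probe at transcript base 842, chr3:115828953-115829012: aaccaagagtttggaagtaacctttactcc

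Spic probe, chr10:88138053-88138112: gagccagaatgtcttcagaaaaatgtgggg

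C1qa probe, chr4:136452409-136452468: ccggccagctttctcagccattcggcagaa

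C1qb probe, chr4:136436578-136436637: attctggggactacggggctacacagaaag

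C1qc probe, chr4:136445766-136445825: tctgggaaccacctaatggtattattcctg

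The 3 C1q probes lie within 15.9 kb of each other on chromosome 4, in the order C1qb, C1qc and C1qa. Their GC content was 55.0%, 38.3% and 55.0% in that order, so the probes of this one cluster differ in base composition. Spic encodes Spi-C, a transcription factor of the same ETS subgroup as PU.1 (Spi1), and both bind purine-rich sites. The hexamer GAGGAA, the core of many such sites, was therefore looked for on both strands in the 250 bases before the transcription start (RefSeq, GRCm38.p6). Windows were at hand for 6 of the 10 members, and the hexamer was in 3 of them, C1qb, C1qc and Axl. It was in 23.3% of 32851 promoter windows of the same length. The windows of C1qb and C1qc, the neighbours in the cluster, are shown with the hexamer or its reverse complement in capitals. It starts 30 bases before the start site in C1qb and, as TTCCTC, 193 bases before it in C1qc. These matches are a description of letters, and no site or factor follows from them.

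C1qb, minus strand, chr4:136886201-136886450: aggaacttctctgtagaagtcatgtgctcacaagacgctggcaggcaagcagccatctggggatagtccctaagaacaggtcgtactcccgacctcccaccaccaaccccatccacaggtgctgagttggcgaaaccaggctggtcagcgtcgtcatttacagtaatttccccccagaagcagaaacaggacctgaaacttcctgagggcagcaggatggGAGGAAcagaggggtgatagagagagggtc

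C1qc, minus strand, chr4:136892915-136893164: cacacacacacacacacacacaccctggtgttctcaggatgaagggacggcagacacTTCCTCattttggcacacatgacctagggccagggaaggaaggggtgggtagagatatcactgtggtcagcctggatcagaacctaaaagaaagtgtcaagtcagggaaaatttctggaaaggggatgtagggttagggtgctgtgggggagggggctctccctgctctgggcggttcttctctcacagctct

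Transcripts of 6 members, Vcam1, Spic, C1qa, C1qb, C1qc and Csf1r, were well above background in all 3 P38α+/- arrays, and those of Cd163 and Siglec1 on none of the 6 arrays. By array, 9, 9 and 8 of the 14 member probes were well above background in P38α+/- replicates 1 to 3, and 7, 9 and 5 in the replicates labelled P38α-/-. Counted as genes, that was 7, 6 and 6 of 10 in P38α+/- and 6, 7 and 3 of 10 in the arrays labelled P38α-/-. The lowest count, in replicate 3 labelled P38α-/-, was left by Vcam1, C1qb and Csf1r. That array was not the one with the fewest probes of any gene well above background, which was replicate 1 with the same label (28.9% of all probes, 6 of 10 members).

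**Figure D1:**
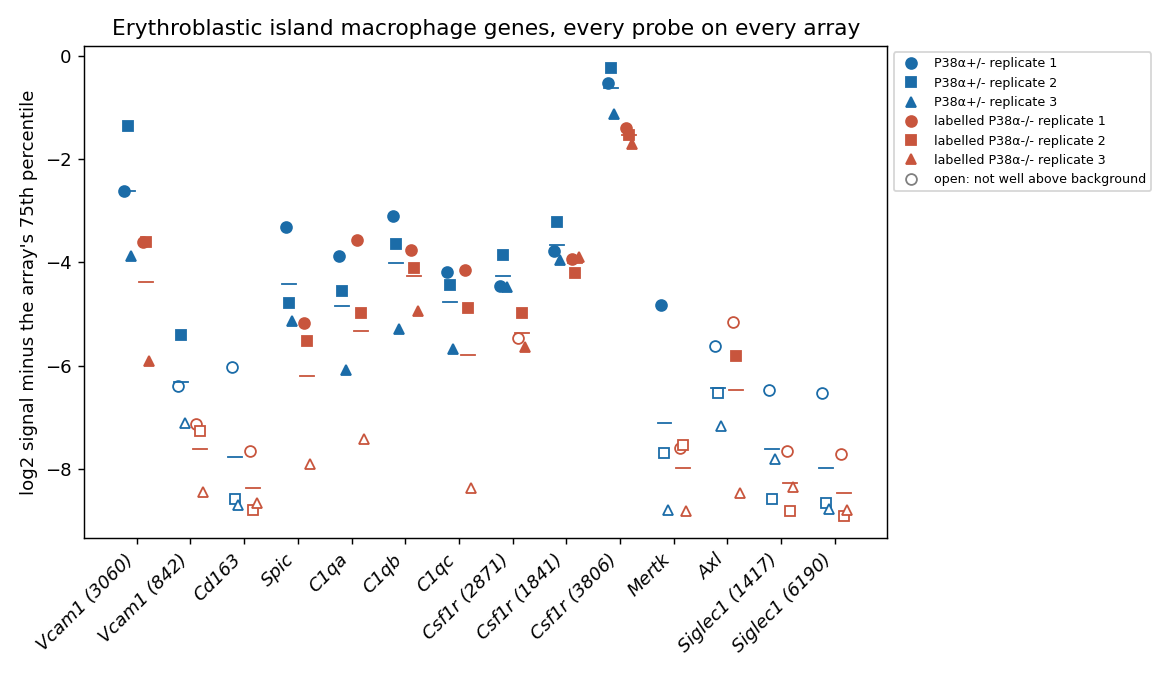
Each point is 1 probe of a member on 1 array, as the log2 signal minus the array's 75th percentile. Colours give the genotype label, shapes the replicate number, open points a signal not well above background, and short lines the mean of 3 arrays; numbers in brackets are transcript positions. Among the tested probes, the 3 arrays labelled P38α-/- lie below all P38α+/- arrays at Spic and at 2 of the 3 Csf1r probes. Replicate 3 labelled P38α-/- is the lowest of 6 at Vcam1, Spic, C1qa, C1qc and the same 2 Csf1r probes.

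The genotypes were compared over the 18777 probes of 14151 genes detected, that is well above background, on every array of at least 1 genotype. By limma with Benjamini-Hochberg adjustment over these probes (adjusted p at most 0.05, fold of at least 2), 28 probes were called, 0.149% of those tested. They belonged to 27 genes, 21 higher and 6 lower in arrays labelled P38α-/-. Of the members, 6 genes with 8 probes were tested and 0 were called. At an unadjusted p under 0.05, limma gave 1 member gene, Csf1r, where 20.9% of all tested probes passed. With the replicate number as a block the count of called members stayed 0, while 62 genes were called over all probes. In that fit 3 member genes, Vcam1, Spic and Csf1r, had an unadjusted p under 0.05 by limma. The share of all tested probes with such a p was not counted there, so the 3 cannot be set against a background. The median log2 fold change of all tested probes was -0.16, and all 8 member probes had values below it. The median over the 6 tested member genes was -0.97 by their brightest probes, against -0.14 over all 14151 genes. Only 4 of the 8 probes were well above background on all 6 arrays and the other 4 passed the filter through the P38α+/- arrays alone, so the common sign is a description. The sign was negative at 5 of 8 member probes without replicate 3 labelled P38α-/-. It was also negative at 5 of 8 with the 75th percentile of all probes, which moved the median of all tested probes to 0.32, with quantile normalization and in the authors' normalized table.

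VCAM-1 is the adhesion molecule by which the macrophage binds α4β1 integrin on erythroblasts. The Vcam1 probe at base 3060 read -2.62, -1.36 and -3.88 in P38α+/- and -3.60, -3.61 and -5.91 in arrays labelled P38α-/-. The highest value was that of P38α+/- replicate 2 and the lowest that of replicate 3 labelled P38α-/-, and the genotypes overlapped. The means were -2.62 ± 1.26 and -4.37 ± 1.33 (SD, n = 3 each), a log2 fold change of -1.75 (95% interval -3.80 to 0.29, adjusted p = 0.292 by limma) or -1.60 relative to the median probe. Within the 3 same-numbered pairs the difference was -0.99, -2.25 and -2.02, lower in the array labelled P38α-/- in 3 of 3. With the replicate number as a block the standard error of the log2 fold change went from 0.85 to 0.30 and the adjusted p from limma was 0.0773. Without replicate 3 labelled P38α-/-, the array on its own slide, the log2 fold change was -0.99.

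The second Vcam1 probe, at base 842, was well above background only in P38α+/- replicate 2 and was not tested. Its signals read -6.41, -5.42 and -7.10 in P38α+/- and -7.13, -7.27 and -8.45 in arrays labelled P38α-/-, without overlap (exact permutation test, two-sided, p = 0.10, the smallest that 3 against 3 allow). All but one of these are values that the scanner did not set apart from background, and the detection limit leaves no fold for this probe. Both probes had their highest value in P38α+/- replicate 2 and their lowest in replicate 3 labelled P38α-/-.

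Spi-C directs the development of the macrophages that recycle iron from red cells, and haem induces its expression. The Spic probe read -3.31, -4.80 and -5.13 in P38α+/- and -5.17, -5.52 and -7.90 in arrays labelled P38α-/-. The genotypes did not overlap, though P38α+/- replicate 3 and replicate 1 labelled P38α-/- were close, and the lowest array was not well above background. The means were -4.41 ± 0.97 and -6.20 ± 1.49 (SD, n = 3 each), a log2 fold change of -1.78 (95% interval -3.76 to 0.19, adjusted p = 0.274 by limma). The differences within pairs were -1.85, -0.73 and -2.77. With the replicate number as a block the adjusted p from limma was 0.106. Without replicate 3 labelled P38α-/- the log2 fold change was -0.93.

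C1qa, C1qb and C1qc encode the 3 chains of C1q, the recognition part of the first complement component, which macrophages make and which tags dying cells for removal. C1qa read -3.89, -4.57 and -6.09 in P38α+/- and -3.58, -4.98 and -7.42 in arrays labelled P38α-/-. Replicate 1 labelled P38α-/- had the highest C1qa value of all 6 arrays and replicate 3 with that label the lowest, which was not well above background. The log2 fold change was -0.48 (95% interval -2.98 to 2.01, adjusted p = 0.830 by limma), and without replicate 3 labelled P38α-/- it turned to 0.57. As a block, the replicate number took the standard error from 1.04 to 0.35, with an adjusted p of 0.427 from limma.

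C1qb was well above background on all 6 arrays, with -3.11, -3.64 and -5.29 in P38α+/- and -3.76, -4.10 and -4.94 in arrays labelled P38α-/-. The lowest C1qb value came from P38α+/- replicate 3, and the 3 arrays labelled P38α-/- lay inside the P38α+/- range. Its log2 fold change was -0.25 (95% interval -1.71 to 1.20, adjusted p = 0.848 by limma), or 0.08 without replicate 3 labelled P38α-/-. This interval, from the unpaired fit, still holds more than a 2-fold difference in either direction. As a block, the replicate number took the standard error from 0.60 to 0.24, with an adjusted p of 0.538 from limma.

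C1qc read -4.19, -4.44 and -5.67 in P38α+/- and -4.15, -4.88 and -8.37 in arrays labelled P38α-/-. Replicate 1 with that label lay just above the P38α+/- range, replicate 2 inside it and replicate 3 far below it. The log2 fold change was -1.03 (95% interval -3.68 to 1.62, adjusted p = 0.636 by limma), and it was 0.25 without that array. As a block, the replicate number took the standard error from 1.10 to 0.60, with an adjusted p of 0.33 from limma. The C1qc probe was printed in 10 spots on each array, which gives its technical spread. The scanner's background-corrected signal of these spots ran from 32.3 to 54.2, from 49.3 to 68.3 and from 23.9 to 38.5 in P38α+/- replicates 1 to 3. In the replicates labelled P38α-/- it ran from 30.9 to 49.5, from 44.0 to 60.1 and from 3.19 to 7.44. All 10 spots were well above background on each of the first 5 arrays and 0 of 10 on the sixth. The coefficient of variation between spots was 8.7% to 17.8% on those 5 arrays and 32.3% on the sixth, where 6 of 10 spots held a floor value set by the scanner software.

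**Figure D2:**
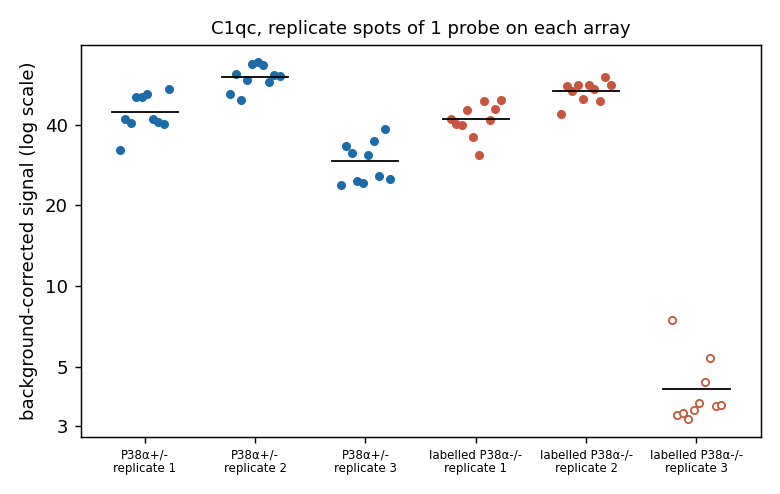
Each point is 1 of the 10 C1qc spots of an array, as the background-corrected signal on a log axis before scaling between arrays; lines are means, and open points were not well above background. The 10 spots of replicate 3 labelled P38α-/- lie between 3.19 and 7.44, below every spot of the other 5 arrays.

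Over the 6 arrays the levels of C1qa and C1qc went together with r = 0.95, C1qa and C1qb with r = 0.85, and C1qb and C1qc with r = 0.74. These are descriptions over 6 arrays of 2 genotypes, and replicate 3 labelled P38α-/- is lowest for C1qa and C1qc but not for C1qb.

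Csf1r encodes the receptor for CSF1, the growth factor on which most tissue macrophages depend. Its probes lie on chromosome 18 between 61278661 and 61290784, at bases 1841, 2871 and 3806 of the transcript. The probe at base 3806 read -0.52, -0.24 and -1.13 in P38α+/- and -1.40, -1.53 and -1.70 in arrays labelled P38α-/-, well above background on all 6 arrays. All arrays labelled P38α-/- were below all P38α+/- arrays. The means were -0.63 ± 0.45 and -1.54 ± 0.15 (SD, n = 3 each), a log2 fold change of -0.91 (95% interval -1.52 to -0.30, adjusted p = 0.144 by limma). Within pairs the difference was -0.87, -1.28 and -0.57. The adjusted p from limma was 0.0877 with the replicate number as a block and 0.0585 without P38α+/- replicate 3, within a range of 0.0585 to 0.832 over all settings.

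The Csf1r probe at base 2871 read -4.47, -3.86 and -4.48 in P38α+/- and -5.46, -4.97 and -5.65 in arrays labelled P38α-/-, again without overlap. Its log2 fold change was -1.09 (95% interval -1.73 to -0.46, adjusted p = 0.118 by limma), and the pair differences of -0.997, -1.12 and -1.16 were the most even of any tested member probe. With the replicate number as a block its adjusted p from limma was 0.0622. The probe at base 1841 read -3.78, -3.23 and -3.96 in P38α+/- and -3.93, -4.21 and -3.90 in arrays labelled P38α-/-, and here the genotypes overlapped. Its log2 fold change of -0.36 (95% interval -0.92 to 0.21, adjusted p = 0.424 by limma) had an interval that overlaps those of the other two. The probes of this gene therefore did not all separate the genotypes, and the difference between probes was not tested.

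In all, 3 of the 8 tested member probes, those of Spic and of Csf1r at 2871 and 3806, had no overlap and lower values in arrays labelled P38α-/-, where 20.8% of all tested probes did, and 0 were higher without overlap, where 6.94% did. Only 1 of these 3, Csf1r at 3806, was detected throughout the 6 arrays, and the other 2 passed the filter through the P38α+/- arrays alone. Counted as genes these were 2 of 6. With the 75th percentile taken over all probes, 0 member genes separated the genotypes, and the share of all probes that did was not counted there.

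**Figure D3:**
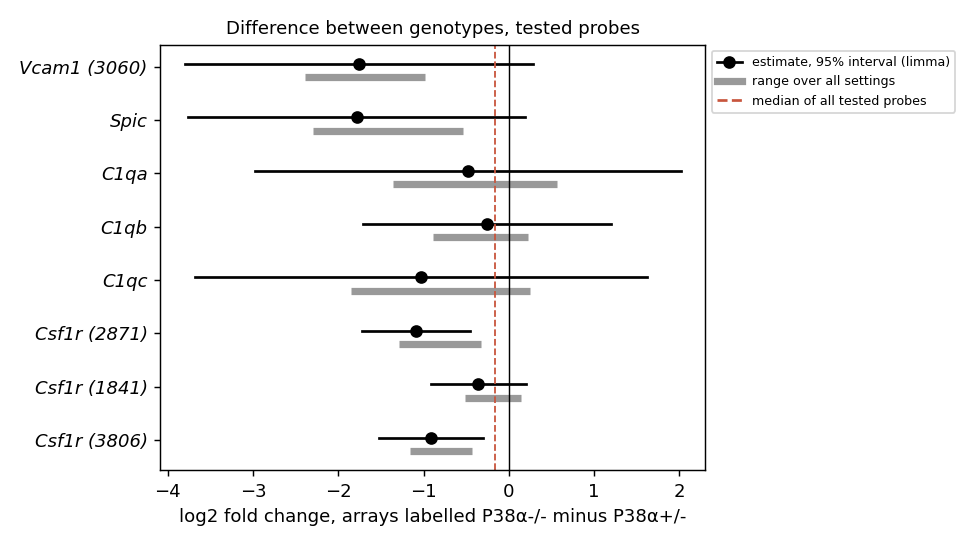
Each row is 1 tested member probe, with the log2 fold change of arrays labelled P38α-/- against P38α+/- arrays, its 95% interval from limma in black and in grey the range of the estimate over all settings run. The intervals of both Csf1r probes at 2871 and 3806 lie below 0 before adjustment, and the grey ranges of C1qa, C1qb, C1qc and of Csf1r at 1841 cross 0.

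The other members were read at or near background. MERTK and AXL are receptor kinases that bind Gas6 on dying cells, and macrophages use Mertk to engulf expelled erythroblast nuclei. Mertk was well above background only in P38α+/- replicate 1 (-4.82), with -7.70 and -8.79 in the other two and -7.60, -7.54 and -8.82 in arrays labelled P38α-/- (exact permutation test, two-sided, p = 0.80). Axl was well above background only in replicate 2 labelled P38α-/- (-5.82), beside -5.15 and -8.47 in the other two and -5.62, -6.52 and -7.17 in P38α+/- (exact permutation test, two-sided, p = 1.00). A single array in each case thus holds the only measured level, and neither gene shows a difference that these arrays can measure. P38α+/- replicate 1, where Mertk was detected, was also the array with the most probes of any gene well above background (53.1%).

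Cd163 encodes the scavenger receptor for haemoglobin bound to haptoglobin, and Siglec1 a sialic acid receptor (CD169) used to mark island macrophages. Cd163 read -6.03 in P38α+/- replicate 1, the array with the most probes well above background. It read between -8.80 and -7.65 in the other 5 arrays, which all held the scanner's floor value. The Siglec1 probe at base 1417 read from -8.58 to -6.46 in P38α+/- and from -8.81 to -7.66 in arrays labelled P38α-/-, and the probe at base 6190 from -8.77 to -6.54 and from -8.91 to -7.72. No level can be given for either gene, and a signal that was not well above background does not show that the transcript was absent.

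Of 16 other macrophage markers, 13 were well above background on at least 1 array, 11 were tested, 1 rose and 0 fell, with a median log2 fold change of -1.11. Some of the tested markers, Adgre1 and Cd5l among them, passed the filter through the P38α+/- arrays alone, so this median is a description. The gene that rose was Lgmn, which encodes the lysosomal protease legumain. Lgmn read -1.999, -1.44 and -1.94 in P38α+/- and 0.19, 0.34 and 0.37 in arrays labelled P38α-/-, a log2 fold change of 2.09 with an adjusted p of 0.0343 from limma. It stayed between 1.88 and 2.57 over the settings run, but its call did not. The adjusted p from limma was 0.0520 with the replicate number as a block, 0.0545 in the authors' normalized table and 0.721 with no filter on dim probes. Among the fits with 1 array left out it passed only without P38α+/- replicate 3 (0.0496), and it was 0.208 without replicate 3 labelled P38α-/-. The other 10 tested markers had values below the median probe, and 3 markers of resident macrophages, Mrc1, Vsig4 and Timd4, were not well above background on any array. Adgre1, a common marker of tissue macrophages, read -5.09 ± 0.86 in P38α+/- and -6.76 ± 1.64 in arrays labelled P38α-/- (SD, n = 3 each, adjusted p = 0.316 by limma). Cd68 had a log2 fold change of -0.43, Mpeg1 of -1.11 and Cd5l, a protein that macrophages secrete, of -2.52, with adjusted p of 0.714, 0.268 and 0.294 from limma.

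The CSF1 receptor has Csf1 as a ligand, and PU.1 (Spi1) and c-Maf are transcription factors of macrophages. Of 11 genes on that list 7 were tested and 0 were called, with a median log2 fold change of -1.07. Spi1 and Csf1 passed the filter through the P38α+/- arrays alone, so this median too is a description. Spi1 read -4.57 ± 0.71 in P38α+/- and -6.40 ± 1.30 in arrays labelled P38α-/- (SD, n = 3 each), a log2 fold change of -1.83 with an adjusted p of 0.206 from limma. Csf1 was at a log2 fold change of -0.71 (adjusted p = 0.352 by limma), and Maf was at background on all 6 arrays.

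Of 14 genes for haem and iron handling 13 were tested and 0 were called, with a median log2 fold change of -0.04. Hmox1, the enzyme that breaks down haem, was read by 2 probes with log2 fold changes of -1.79 and -1.02 (adjusted p = 0.159 and 0.161 by limma). Slc40a1 encodes ferroportin, which exports iron from macrophages and also from erythroblasts, and its log2 fold change was 0.42 (adjusted p = 0.189 by limma). The 2 genes thus had values of opposite sign, and neither passed.

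Of 17 genes for engulfment and digestion of nuclei 8 were tested and 0 were called, with a median log2 fold change of -0.99. Some of the tested genes, Gas6 among them, passed the filter through the P38α+/- arrays alone. Among the bridging ligands, Gas6 had a log2 fold change of -1.15 and Mfge8 of -1.12, with adjusted p of 0.422 and 0.139 from limma. Pros1, the gene of protein S, and Tyro3, the third receptor of the Mertk and Axl family, were well above background only in P38α+/- replicate 1, as was Mertk. That array had the largest share of all probes well above background (53.1%). Dnase2a, the nuclease that digests engulfed nuclei, read 1.09 ± 0.18 and 0.85 ± 0.25 (SD, n = 3 each, adjusted p = 0.516 by limma). Of 9 other complement genes measured, 4 were tested and 0 were called, with a median log2 fold change of -1.27.

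Among 11 adhesion partners, 8 were tested and 0 were called, with a median log2 fold change of -0.07. The erythroblast partner of VCAM-1 is the integrin of Itga4 and Itgb1, whose brighter probes had log2 fold changes of -0.07 and -0.28 (adjusted p = 0.825 and 0.487 by limma). A second probe of each, also well above background on all 6 arrays, had -0.59 and -0.71 (adjusted p = 0.335 and 0.310 by limma). Maea, the erythroblast macrophage attacher protein, and Icam4, which binds αV integrins on the macrophage, were both at a log2 fold change of 0.08 (adjusted p = 0.792 and 0.850 by limma). Itgam, the integrin chain CD11b of myeloid cells, was at a log2 fold change of -0.27 at its brightest probe (adjusted p = 0.763 by limma). A second Itgam probe read -3.04, -2.40 and -3.83 in P38α+/- and -4.03, -4.24 and -4.09 in arrays labelled P38α-/-, without overlap, at a log2 fold change of -1.03 (adjusted p = 0.184 by limma), so its probes disagree in size.

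Levels of markers of other cells on the same arrays are given as sums, which were not tested. The summed level of the 10 member genes, over the brightest probe of each gene and in multiples of the 75th percentile, was 0.630 to 1.46 in P38α+/- and 0.380 to 0.747 in arrays labelled P38α-/-, with overlap. The Csf1r probe at base 3806 made up the largest part of the member sum on every array. The summed level of 10 neutrophil markers, all detected on every array and none at 0, was 111 to 286 and 59.2 to 83.4, without overlap, and all 10 had values below the median probe while 0 were called. Without replicate 3 labelled P38α-/- the latter range was 81.8 to 83.4. S100a8 had a log2 fold change of -1.24 and Ltf of -1.27 (adjusted p = 0.160 and 0.115 by limma). The sum of 8 B cell markers was 0.139 to 1.23 and 0.057 to 0.191, with overlap and with as few as 1 of 8 well above background on an array. That of 7 T and NK cell markers was 0.75 to 2.67 and 0.556 to 0.707, without overlap. The brighter Nkg7 probe, the largest part of that sum on every array, read -0.11, 1.17 and -1.20 in P38α+/- arrays. In arrays labelled P38α-/- this probe read -1.48, -1.60 and -2.07, and no sum without it was taken. The summed level of 7 monocyte and dendritic cell markers was 14.8 to 18.02 and 12.3 to 13.8, but 1 probe of Siglech, with a log2 fold change of -0.30, made up 97.3% to 99.5% of it on every array. Without Siglech the sum was 0.178 to 0.491 and 0.060 to 0.131. The median log2 fold change of the 4 tested genes of this list was -1.62, and some of these passed the filter through the P38α+/- arrays alone. For 16 other macrophage markers the sum was 1.68 to 3.70 and 2.10 to 2.42, with Lgmn making up 48.9% to 61.5% of it in arrays labelled P38α-/-. Without Lgmn it was 1.42 to 3.33 and 0.809 to 1.19, and did not overlap. The sums without Siglech and without Lgmn were chosen after the data were seen. For 10 erythroid markers the ranges were those given above. The sums of 7 megakaryocyte and platelet markers, 2.14 to 2.95 and 2.54 to 3.43, and of 10 stromal and endothelial markers, 0.839 to 1.29 and 0.689 to 1.06, overlapped. P38α+/- replicate 2 had the highest sum for the members and for the neutrophil, B cell, T and NK cell, monocyte and macrophage lists. The part of these cells in the member values was not tested.

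**Figure D4:**
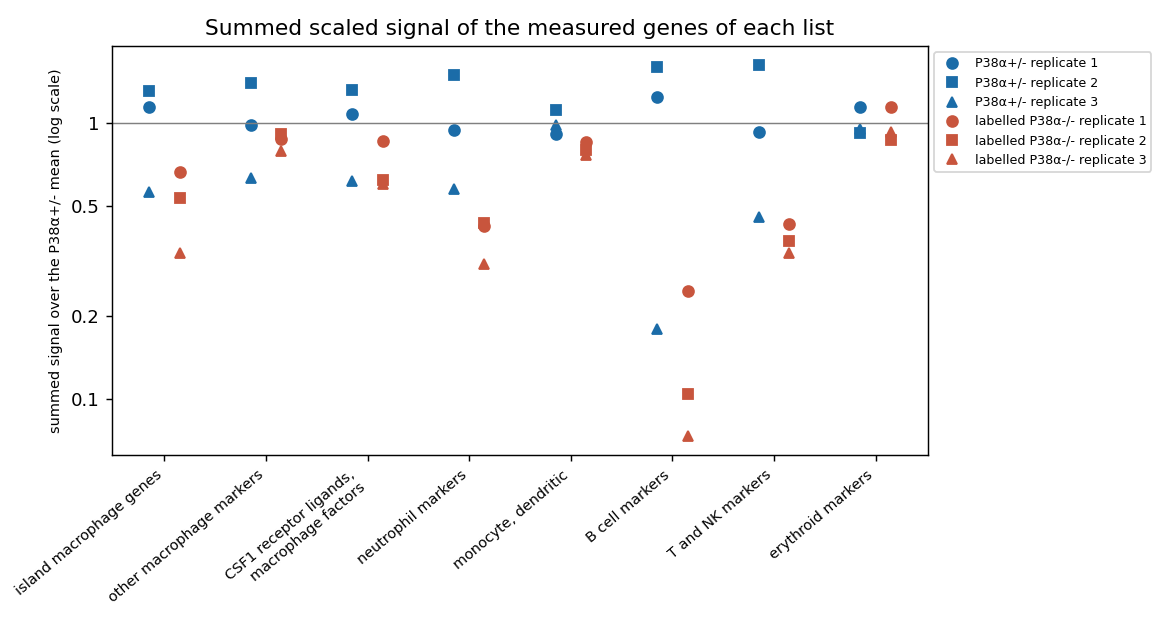
Each point is the summed scaled signal of a list on 1 array, over the brightest probe of each measured gene, divided by the mean of the 3 P38α+/- arrays and drawn on a log axis. Colours give the genotype label and shapes the replicate number. Of the lists drawn, P38α+/- replicate 2 is highest in all but the erythroid one, and neutrophil markers of the arrays labelled P38α-/- lie below all P38α+/- arrays.

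Among 15534 other probes well above background on all 6 arrays, the 5 genes whose levels ran closest to the Csf1r probe at base 3806 were Fcgr3, Ifitm6, Myo1f, Cd52 and Tent5a, with Pearson's r between 0.9957 and 0.9984. Fcgr3 encodes an Fc receptor of myeloid cells and read -2.91, -2.30 and -3.87 in P38α+/- and -4.48, -4.74 and -5.12 in arrays labelled P38α-/-. These correlations describe 6 arrays that also differ in genotype and were the highest of many, so they carry no test. Over the same arrays the Csf1r probe went with Vcam1 at base 3060 with r = 0.88 and with Spic with r = 0.74. For C1qa, C1qb and C1qc its r was 0.49, 0.58 and 0.58.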

How the data were processed

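RNA of 6 mice was measured on 1 Agilent 1-colour array each. The authors deposited the intensity of every spot as Agilent Feature Extraction 10.7.3.1 wrote it, background-subtracted within the array and not normalized between arrays, and a table of normalized intensities whose steps are not given in the sources used here. Groups and replicate numbers came from the sample labels, and 0 columns were unassigned. Probes were taken by the gene name in the files, and genes that are not members by the current RefSeq symbol (27503 probes by accession, 3554 by symbol, 404 by synonym, 24220 with the file's name).

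The members and gene lists were chosen with earlier results of these data known. All member probes and a fixed set of other genes are named, with any listed gene that passed, except that some of the set are not reported here. Control and outlier spots were left out and spots of a probe averaged. A probe counted as well above background where more than 50% of its spots did, and 0 spots were saturated. Log2 signals were scaled to the 75th percentile and fitted with limma 3.58.1 (lmFit, eBayes, two-sided, R 4.3.3), with Benjamini-Hochberg adjustment, and tested on simulated data first. A gene's level is its brightest tested probe, or brightest measured probe in summed levels. Single probes were compared by exact permutation, whose smallest p is 0.10. The number of arrays, 3 mice per genotype, limits the precision.

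After the mean of its genotype was removed, each array was compared with those of the other genotype, and r was 0.54, 0.31 and 0.42 for equal replicate numbers and -0.48 to 0.18 for unequal ones. The design text of the series also mentions pairs. The numbers were therefore read as pairing the mice. The main fit is unpaired, as in the methods. In the authors' normalized table, 1 column, replicate 2 labelled P38α-/-, had a Spearman correlation of 0.898 with its array against 1.00 for the others. The 15 alternatives were 2 scalings, normexp with an offset of 50, 2 filters, the authors' table, replicate number or slide as a block, the methods' unpaired equal-variance test and each array left out.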

Additional observations from a re-analysis of the deposited data

How the results depend on the processing

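The number of member genes called was 0 in all 15 alternatives. Over all probes, 27 genes were called in the reported fit (21 higher, 6 lower). The count was 733 with the 75th percentile of all probes (407 higher, 326 lower), 15 with quantile normalization (14 higher, 1 lower), 12 with normexp (all higher) and 11 in the authors' normalized table (all higher). It was 0 with no filter on dim probes, 64 with probes well above background on all 6 arrays, 62 with the replicate number as a block (15 higher, 47 lower), 0 with the slide as a block and 2 by the methods' unpaired equal-variance test. Leaving out 1 array at a time gave 0 to 98 genes, the 98 without P38α+/- replicate 3, 10 without P38α+/- replicate 1 and 0 without each of the other 4. Member genes without overlap numbered 2 in the reported fit and 0 with the 75th percentile of all probes. They numbered 1 with quantile normalization, with normexp, with the stricter filter and in the authors' table, 3 with no filter and 2 to 4 with 1 array left out, the 4 without P38α+/- replicate 3. The share of all probes without overlap was not counted in these alternatives, so the counts carry no result about the members.

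The sign turned at some member probes. C1qa, C1qb and Csf1r at base 1841 had log2 fold changes of 1e-04, 0.23 and 0.13 with the 75th percentile of all probes, 0.14, 0.10 and 0.14 with quantile normalization, and 0.12, 0.12 and 0.12 in the authors' table. With the slide as a block, which amounts to leaving out replicate 3 labelled P38α-/-, C1qa, C1qb and C1qc were at 0.57, 0.081 and 0.25, and so they were without that array. C1qb was at 0.20 without P38α+/- replicate 1. Vcam1 at base 3060, Spic and Csf1r at 2871 and 3806 kept their sign in every setting that fitted them, between -2.39 and -0.99, -2.30 and -0.54, -1.29 and -0.33, and -1.16 and -0.43. With 1 array left out, C1qa ran from -1.36 to 0.57, C1qb from -0.89 to 0.20 and C1qc from -1.86 to 0.25. The replicate block changed no call of a member, and Lgmn lost its call under it. The cause of these changes was not tested. Members near background, Cd163, Siglec1, Mertk and Axl, are limited by signal over background on these arrays.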
